A study of Mus musculus with 16 samples.

Results

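The genes described here belong to the unfolded protein response of the endoplasmic reticulum (ER), and were chosen by name. They are the 9 genes Xbp1, Hspa5, Hsp90b1, Pdia4, Dnajb9, Herpud1, Sdf2l1, Creld2 and Derl3, all present among the 12618 genes of the deposited table. The rule used gene names and no measured value, but the 9 were chosen with earlier results of these data known. Counts over the 9 are therefore no independent evidence. Liver mRNA was sequenced from mice on a Western diet for 8 weeks, 8 livers with a control CRISPR label and 8 with a Cyp7a1 CRISPR label. CRISPR edits genes at chosen sites, and CYP7A1 is the enzyme that limits the rate of the classical route from cholesterol to bile acids. The diet was common to both groups. The sources used here do not give how and in which cells the editing was done, nor the strain, sex and age of the mice. No label says that every library had an animal of its own, so the p-values cover only the spread among these samples, which may be technical. Values are normalized counts, the unit of the deposited table.

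The unfolded protein response matches the folding capacity of the ER to the load of proteins entering it. The membrane sensors IRE1, PERK and ATF6 are held by the chaperone BiP, the product of Hspa5, and are released when unfolded proteins occupy it. IRE1 splices the Xbp1 transcript, and the spliced product is a transcription factor that, with the cleaved form of ATF6, raises genes for chaperones, folding enzymes and ER-associated degradation, the removal of misfolded proteins by the proteasome. Hepatocytes secrete large amounts of plasma protein and lipoprotein, and in liver XBP1 is also known for a role in lipid synthesis. Gene counts do not separate spliced from unspliced Xbp1, and they do not show activity of the sensors.

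Promoters of all 9 genes were found in RefSeq (GRCm38.p6), from 250 bases before to 49 after the start base. They were searched on both strands for the binding elements of ATF6 and XBP1. The ER stress response element, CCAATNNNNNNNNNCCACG, was present in 4 of the 9 genes (Hspa5, Hsp90b1, Creld2 and Derl3), against 0.119% of 32851 promoters of the same length. Its second form, ATTGGNCCACG, was present in Herpud1, against 0.0365% of promoters. The XBP1 core, ACGTGG, was present in Derl3, Dnajb9 and Herpud1, against 8.31% of promoters. In Herpud1 the core overlapped the second form. The sequences below are shown because they hold every match among the 9 genes. They run 5′ to 3′ on the strand of the gene, with each match and its spacer in capitals. A match on the other strand appears as its reverse complement.
Hspa5, chr2:34772013-34772055, plus strand: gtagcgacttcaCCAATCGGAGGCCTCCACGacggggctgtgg
Hsp90b1, chr10:86705521-86705668, minus strand: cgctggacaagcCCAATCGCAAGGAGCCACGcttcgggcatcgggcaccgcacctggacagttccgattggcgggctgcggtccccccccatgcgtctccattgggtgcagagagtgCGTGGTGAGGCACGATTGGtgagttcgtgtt
Creld2, chr15:88819508-88819550, plus strand: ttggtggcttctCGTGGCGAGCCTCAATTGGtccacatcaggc
Derl3, chr10:75893217-75893272, plus strand: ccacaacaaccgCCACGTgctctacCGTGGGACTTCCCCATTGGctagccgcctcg
Herpud1, chr8:94386365-94386400, plus strand: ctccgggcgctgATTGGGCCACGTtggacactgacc
Dnajb9, chr12:44210159-44210188, minus strand: aacaacagttttCCACGTgcgcgtagggcg
The matches lay between 41 and 212 bases upstream of the RefSeq start. Hsp90b1 held the stress response element at 2 places, in opposite orientations. None of these letters was found in the windows of Xbp1, Pdia4 and Sdf2l1. A match is a description of the sequence, and binding was not measured.

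Xbp1 and Derl3 were lower in the Cyp7a1-labelled livers, Derl3 by 2.48-fold and Xbp1 by 1.27-fold on the log2(value + 1) scale. The call of Xbp1 ended without any of 11 single libraries and that of Derl3 without any of 3. Sdf2l1 and Pdia4 had lower means and Dnajb9 a higher mean, and none of these 3 passed the test. Hspa5, Hsp90b1, Herpud1 and Creld2 had intervals that included no change. By count, 2 of the 9 genes passed as lower and 0 as higher (limma, Benjamini-Hochberg adjustment over 12617 genes, threshold 0.05). Of all genes tested, 3.05% passed as lower and 3.07% as higher. The fold change was below 0 in 8 of the 9 genes, against 49.05% of all genes. Of the 8, Hspa5 and Herpud1 were near 0, with log2 fold changes of -0.01 and -0.03. Over alternative fits and single libraries left out, 6 to 8 of the 9 were below 0. Several of the 9 varied together within groups, so this is not a count of independent genes. The median log2 fold change of the 9 was -0.14, against 0.0034 over all genes. At an unadjusted p under 0.05, 5 of the 9 genes differed, 1 of them, Dnajb9, higher, against 20.5% of all genes, and edgeR and DESeq2 on recovered reads also called 0 of the 9 higher. In none of the 9 were the groups free of overlap, while 0.531% of all genes were lower without overlap. Since the tissue was bulk liver, fewer cells of a type and less RNA per cell cannot be told apart.

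Depth was 21.02 ± 3.48 M reads per control library and 23.4 ± 2.41 M per Cyp7a1-labelled library (SD, n = 8 each; M, mega). Control 38 was the least deep library, with 13.8 M reads. The Cyp7a1 transcript was not lower in the livers labelled Cyp7a1, with 3587 ± 1252 normalized counts in controls and 4702 ± 1126 in the other group (SD, n = 8 each). Counts per gene do not show edits of the coding sequence. Directions therefore rest on the labels.

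**Figure D1:**
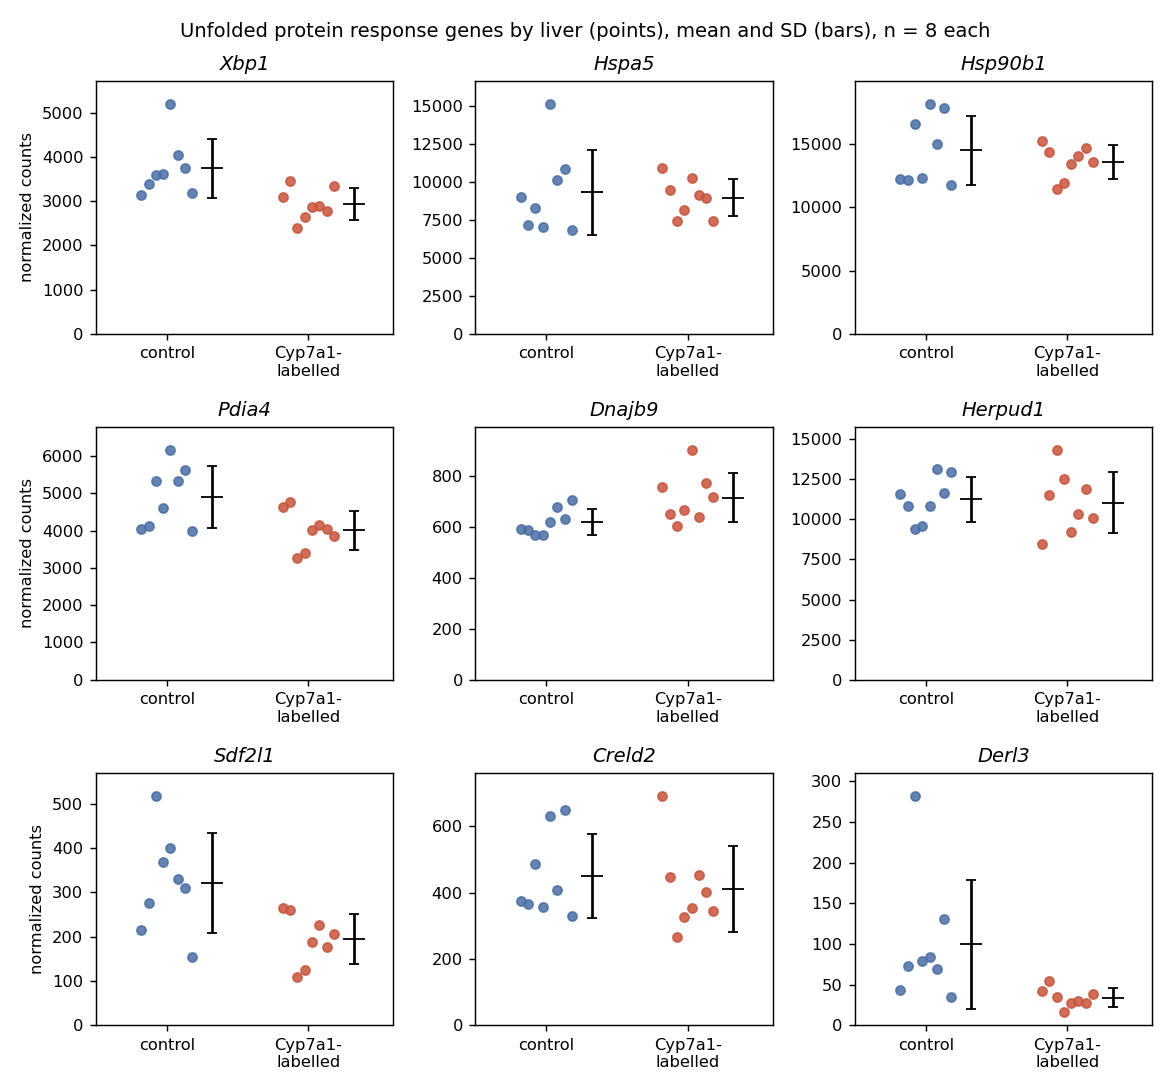
Normalized counts (vertical axes, linear, from 0) of the 9 genes in each control liver (blue points) and each Cyp7a1-labelled liver (red points), with the group mean and SD as bars (n = 8 each). The control point far above the others for Derl3 is Control 13, at 282.4, and the one for Xbp1 and Hspa5 is Control 20.

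Xbp1 (ENSMUSG00000020484, chromosome 11, 5520659 to 5525893 on mm10, plus strand) is the transcription factor of the IRE1 arm. Control livers ran from 3143 through a median of 3610.2 to 5194 normalized counts, the highest in Control 20. Cyp7a1-labelled livers ran from 2392 through a median of 2886 to 3452. All 8 Cyp7a1-labelled livers lay below the control mean and 6 of them below the lowest control, and the groups overlapped through Cyp7a1 5 and Cyp7a1 36. The means were 3736.5 ± 658 and 2933 ± 352 (SD, n = 8 each). The log2 fold change was -0.34 ± 0.10 (SE; 95% interval -0.54 to -0.14; limma adjusted p = 0.0414). A two-sided exact permutation test over the 16 libraries gave p = 0.00264. The adjusted p rose above the threshold when any of 11 single libraries was left out, to between 0.0508 and 0.0794, the highest without Cyp7a1 19. Leaving out Control 7, 20 or 38, or Cyp7a1 5 or 36, kept the call, and the direction held in all of these fits, with log2 fold changes between -0.38 and -0.27.

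Of the chaperones, Hspa5 (ENSMUSG00000026864, chromosome 2, 34771970 to 34777547, plus strand) encodes BiP, the Hsp70 chaperone of the ER lumen. Controls ran from 6826 in Control 38 through a median of 8640.5 to 15124 in Control 20, and Cyp7a1-labelled livers from 7427 through 9058 to 10883. All 8 Cyp7a1-labelled livers fell inside the range of the controls, whose spread was the wider one, with an SD of 2782 against 1247. This gave a log2 fold change of -0.01 ± 0.14 (SE; 95% interval -0.31 to 0.28; limma adjusted p = 0.969). Its sign turned without Control 20, to 0.09.

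Hsp90b1 (ENSMUSG00000020048, chromosome 10, 86690209 to 86705509, minus strand) encodes GRP94, the Hsp90 chaperone of the ER. Controls ran from 11735 through 13668 to 18174, and Cyp7a1-labelled livers from 11415 through 13841 to 15246. The highest 3 controls, Control 20, Control 35 and Control 13, lay above every Cyp7a1-labelled liver, and the others overlapped. Between groups the log2 fold change was -0.08 ± 0.10 (SE; 95% interval -0.29 to 0.13; limma adjusted p = 0.725).

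Pdia4 (ENSMUSG00000025823, chromosome 6, 47796141 to 47813430, minus strand) encodes the disulfide isomerase ERp72. Controls ran from 3979 through 4971 to 6172, and Cyp7a1-labelled livers from 3270.1 through 4028.5 to 4768. All 8 Cyp7a1-labelled livers lay below the control mean and 3 of them below the lowest control. The log2 fold change of -0.28 ± 0.10 had a 95% interval of -0.49 to -0.07 and did not pass over all genes (SE; limma adjusted p = 0.111). The exact permutation test of Pdia4 alone gave p = 0.0249.

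Sdf2l1 (ENSMUSG00000022769, chromosome 16, 17130138 to 17132383, minus strand) encodes an ER-resident partner of BiP and its J-domain co-chaperones. Controls ran from 153.6 in Control 38 through 320.3 to 518 in Control 13, and Cyp7a1-labelled livers from 110.3 in Cyp7a1 17 through 197 to 266 in Cyp7a1 2. The 6 highest controls lay above every Cyp7a1-labelled liver, and Control 38 and Control 7 lay among them. The means were 321 ± 113 and 195 ± 57.1 (SD, n = 8 each), and the log2 fold change was -0.70 ± 0.23 (SE; 95% interval -1.17 to -0.22). It did not pass with limma (adjusted p = 0.0773), and the exact permutation test of Sdf2l1 alone gave p = 0.0162. On reads recovered from the table it passed with DESeq2 (adjusted p = 0.0172) and not with edgeR (adjusted p = 0.0579). Without Control 38, the lowest control and least deep library, limma gave an adjusted p of 0.0267.

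Creld2 (ENSMUSG00000023272, chromosome 15, 88819646 to 88826683, plus strand) encodes an EGF-domain protein of the ER that can be secreted. Controls ran from 330.2 through 392 to 649, and Cyp7a1-labelled livers from 265 through 378 to 693, the highest in Cyp7a1 2. Both the lowest and the highest of the 16 livers were Cyp7a1-labelled. This gave a log2 fold change of -0.14 ± 0.18 (SE; 95% interval -0.52 to 0.23; limma adjusted p = 0.723).

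Dnajb9 (ENSMUSG00000014905, chromosome 12, 44205559 to 44210326, minus strand) encodes ERdj4, a J-domain co-chaperone of BiP that is known to bring BiP to IRE1. Controls ran from 569 through 605 to 703, and Cyp7a1-labelled livers from 601 through 692 to 902 in Cyp7a1 24. Of the Cyp7a1-labelled livers, 7 of 8 lay above the control mean and 4 above the highest control. The means were 618.5 ± 50.3 and 713 ± 96.4 (SD, n = 8 each), a log2 fold change of 0.20 ± 0.07 (SE; 95% interval 0.04 to 0.36). This did not pass over all genes (limma adjusted p = 0.131), and the exact permutation test of Dnajb9 alone gave p = 0.0205. Dnajb9 was the 1 gene of the 9 with a fold change above 0.

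Of the degradation genes, Derl3 (ENSMUSG00000009092, chromosome 10, 75893413 to 75895941, plus strand) encodes a derlin, a membrane protein through which misfolded proteins leave the ER. Its promoter window, printed above, holds both a stress response element and an XBP1 core. Hspa5, Hsp90b1 and Creld2 hold the same element, and Dnajb9 and Herpud1 the core, and none of these passed. Xbp1, which passed, holds no match. A relation of matches to fold changes was not tested. For Derl3, controls ran from 35.3 in Control 38 through 76.3 to 282.4 in Control 13. Cyp7a1-labelled livers ran from 16.4 in Cyp7a1 19 through 32.3 to 55.0 in Cyp7a1 5. All 8 Cyp7a1-labelled livers lay below the control mean, 5 of them below the lowest control, and 6 controls lay above every Cyp7a1-labelled liver. The means were 99.7 ± 79.2 and 34.1 ± 11.7 (SD, n = 8 each). The log2 fold change was -1.31 ± 0.33 (SE; 95% interval -2.01 to -0.60; limma adjusted p = 0.0284), and the exact permutation test gave p = 0.00155. Without Control 13 the log2 fold change was -1.05 (limma adjusted p = 0.0291). The adjusted p rose above the threshold without Control 35 (0.0513), Cyp7a1 19 (0.0559) or Cyp7a1 28 (0.0558).

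Herpud1 (ENSMUSG00000031770, chromosome 8, 94386438 to 94395377, plus strand) encodes a membrane scaffold of the HRD1 ubiquitin ligase complex. Controls ran from 9375 through 11231 to 13149, and Cyp7a1-labelled livers from 8480.3 in Cyp7a1 2 through 10941 to 14345 in Cyp7a1 17. All 8 controls fell inside the range of the Cyp7a1-labelled livers. The log2 fold change was -0.03 ± 0.10 (SE; 95% interval -0.25 to 0.18; limma adjusted p = 0.895).

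The livers did not order alike for every gene. Averaged over the 9 genes on the log2(value + 1) scale and set to 0 at the control mean, control livers ran from -0.37 in Control 38 to 0.32 in Control 20, with an SD of 0.27. Cyp7a1-labelled livers ran from -0.56 in Cyp7a1 19 to -0.05 in Cyp7a1 2, with a mean of -0.30 and an SD of 0.18. Derl3 and Sdf2l1, at log2 fold changes of -1.31 and -0.70, weighed most in that mean, and the median over the 9 genes was -0.14. Control 20 had the highest control value for Xbp1, Hspa5, Hsp90b1 and Pdia4, Control 13 for Sdf2l1 and Derl3, and Control 35 for Creld2. Control 38 had the lowest control value for Hspa5, Hsp90b1, Pdia4, Sdf2l1, Creld2 and Derl3, and the highest for Dnajb9. Relative to its mean, Derl3 spread most between controls, with a coefficient of variation of 79.5%, and Dnajb9 least, with 8.13%. Among Cyp7a1-labelled livers the lowest was 9.79% for Hsp90b1 and the highest 34.3% for Derl3.

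**Figure D2:**
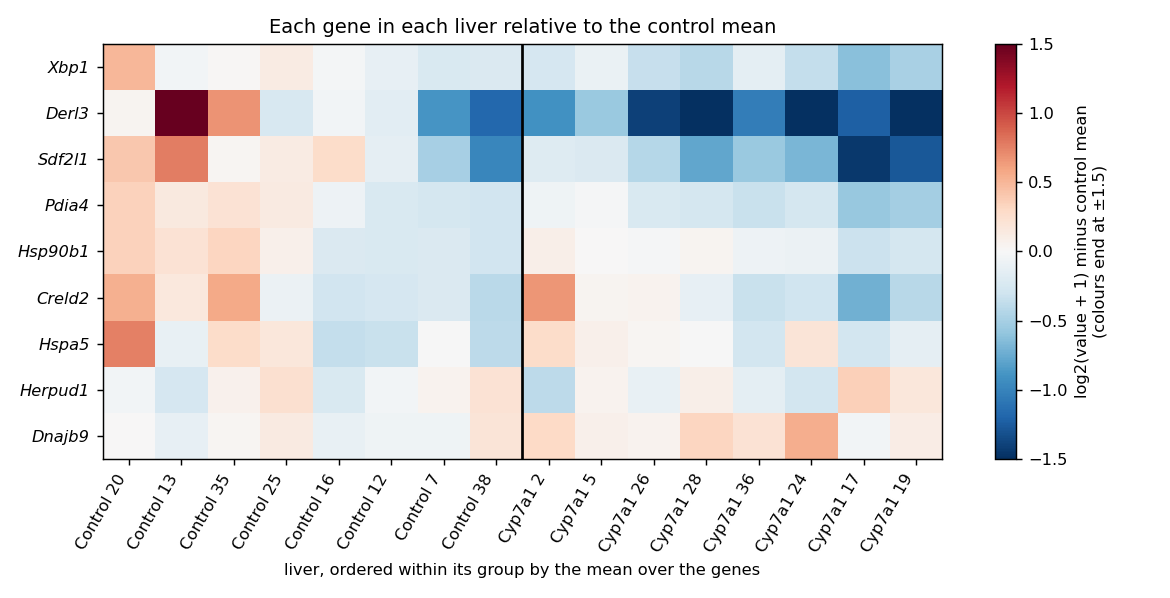
Each of the 9 genes (rows) in each liver (columns, ordered within the group by the mean over the genes), as log2(value + 1) minus the control mean. Red is above and blue below the control mean, the colours end at 1.5 in either direction, and the vertical line parts the 8 control from the 8 Cyp7a1-labelled livers. Derl3 and Sdf2l1 show the deepest blue on the right, and the rows of Dnajb9 and Herpud1 run differently from the rest.

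To set levels of different genes side by side, values were divided by the merged length of all annotated exons of each gene. Exons not used in liver count in that length, so the order of genes is approximate. Per kilobase of exon, Herpud1 was the most abundant in controls, with 4823 ± 596 normalized counts per kb. Hsp90b1 followed with 3601 ± 677, Hspa5 with 2199 ± 658, Pdia4 with 2043 ± 345 and Xbp1 with 1150 ± 203 (SD, n = 8 each). Creld2 had 329.7 ± 92.4, Sdf2l1 290.1 ± 102, Dnajb9 243 ± 19.7 and Derl3 50.02 ± 39.8 normalized counts per kb. The control ranges did not overlap between Pdia4 and Xbp1, between Xbp1 and Creld2, and between Dnajb9 and Derl3. Between the other neighbours in this order they overlapped, although Hsp90b1 exceeded Hspa5 within each of the 8 controls. Sdf2l1 exceeded Dnajb9 within 6 of 8 controls and 0 of 8 Cyp7a1-labelled livers, where the means were 176 ± 51.5 and 280 ± 37.8 normalized counts per kb (SD, n = 8 each). No test of that exchange of order was made.

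**Figure D3:**
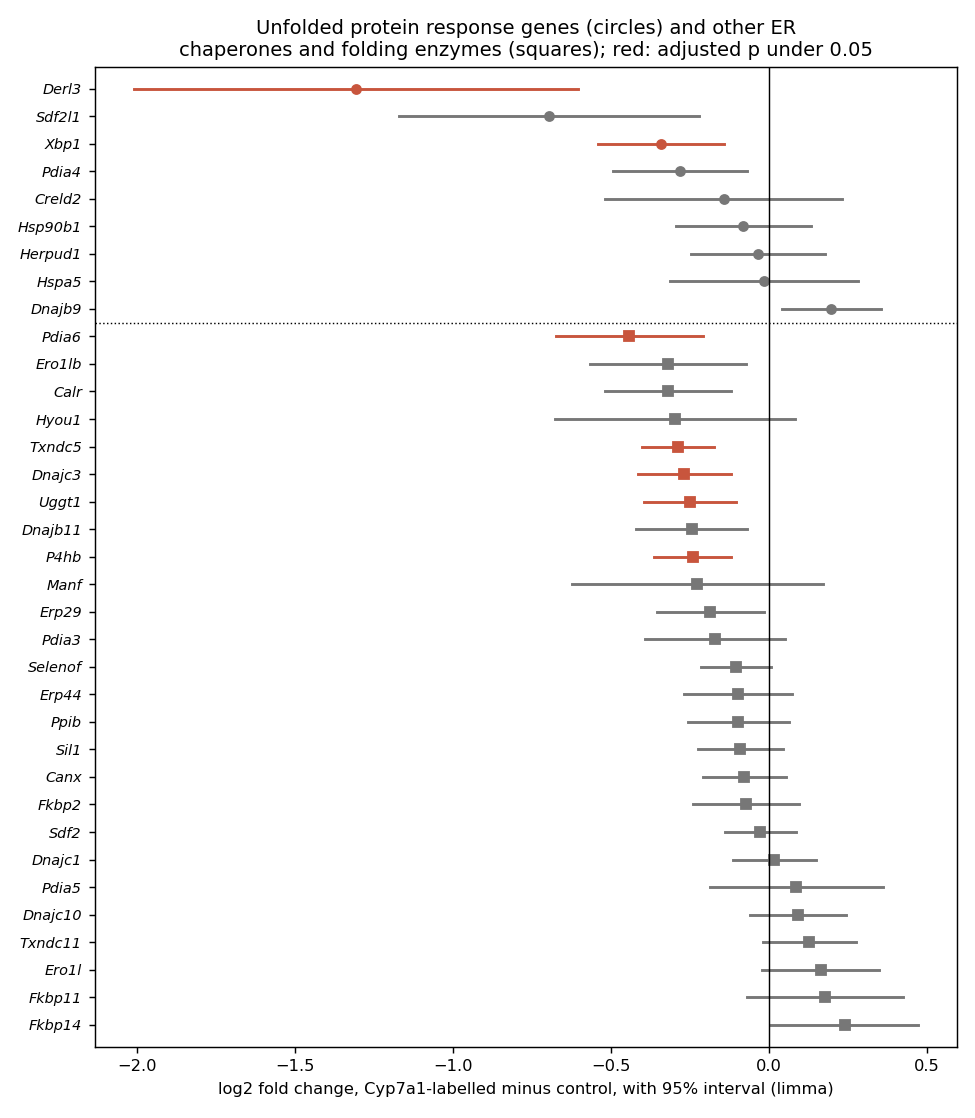
Log2 fold change, Cyp7a1-labelled minus control, with the limma 95% interval, for the 9 genes (circles, above the dotted line) and for 26 other ER chaperones and folding enzymes (squares). Red marks an adjusted p under 0.05 over all genes, which Derl3 and Xbp1 reached among the circles and Pdia6, Txndc5, Dnajc3, Uggt1 and P4hb among the squares.

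Within groups, 7 of the 9 genes varied together from liver to liver. Pearson's r was computed for the 36 pairs over the 16 livers on the log2(value + 1) scale after the mean of each group was subtracted, so that the difference between groups did not enter. Values of all genes in a library share its depth and scale factor. Of the 36 pairs, 26 had r above 0 and 18 passed a permutation test within groups after Benjamini-Hochberg adjustment over the 36. The 21 pairs without Herpud1 and Dnajb9, a grouping made after the values were seen, all had r above 0, from 0.20 to 0.93 with a median of 0.73, and 17 of them passed. The share of passing pairs among other genes was not computed. Whether the 9 genes vary together more than other genes do was therefore not tested. Hsp90b1 and Pdia4 were the closest pair, with r = 0.93 (permutation p = 2e-05, adjusted 0.00024) and rho = 0.94 (permutation p = 1e-05, the smallest that 100000 permutations can give, adjusted 0.00018). Without the 2 livers farthest from the median of Hsp90b1, Control 38 and Control 20, r was 0.90. Xbp1 and Pdia4 had r = 0.84 (permutation p = 3e-05, adjusted 0.00027) and rho = 0.84 (permutation p = 0.00015, adjusted 0.0011), and r was 0.78 without Control 20 and Cyp7a1 5. Sdf2l1 and Derl3 had r = 0.77 (permutation p = 0.00078, adjusted 0.0035) and rho = 0.73 (permutation p = 0.0027, adjusted 0.0087), and r was 0.84 without Control 38 and Cyp7a1 17. Xbp1 and Hspa5 had r = 0.70 (permutation p = 0.0072, adjusted 0.017) and rho = 0.62 (permutation p = 0.014, adjusted 0.032). That relation fell to r = 0.44 without Control 20 and Cyp7a1 5.

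Herpud1 ran the other way over both groups together. Its 8 pairs all had r below 0, from -0.71 to -0.18, and 1 passed after adjustment, that with Sdf2l1 at r = -0.71 (permutation p = 0.0021, adjusted 0.0064) and rho = -0.68 (permutation p = 0.0063, adjusted 0.015). Without Cyp7a1 17 and Cyp7a1 2, the livers with the highest and lowest Herpud1, r was -0.60. Among the 8 controls alone, r was 0.13 with Hspa5, -0.10 with Xbp1, -0.14 with Hsp90b1, -0.18 with Pdia4 and -0.15 with Creld2. Among the 8 Cyp7a1-labelled livers the same pairs had -0.70, -0.59, -0.70, -0.65 and -0.71. In controls and Cyp7a1-labelled livers, r was -0.69 and -0.76 with Sdf2l1, and -0.65 and -0.27 with Derl3. These differences between groups were not tested. Of the 8 pairs of Dnajb9, 5 had r above 0 and none passed with either coefficient. Herpud1 and Dnajb9 had r = 0.90 among the 8 controls and r = -0.66 among the 8 Cyp7a1-labelled livers, and the difference between these was not tested. Over both groups their r was -0.18 (permutation p = 0.56, adjusted 0.62). With the mean of the other 8 genes, r was highest for Pdia4 at 0.96 and Hsp90b1 at 0.93, was -0.02 for Dnajb9, and was lowest for Herpud1 at -0.55, which is given as a description.

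**Figure D4:**
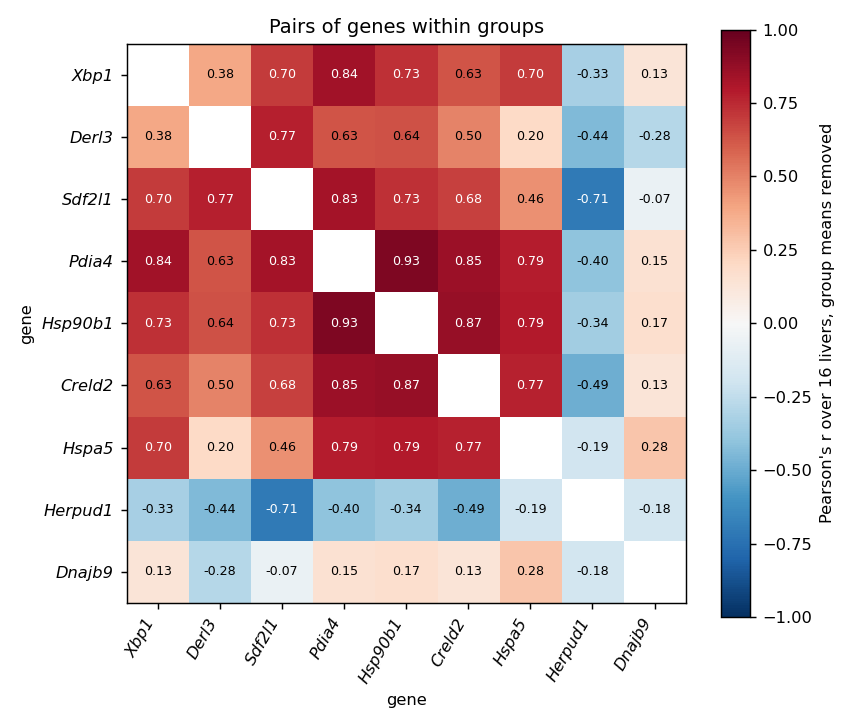
Pearson's r for each pair of the 9 genes over 16 livers after the mean of each group was subtracted, printed in each square (red above 0, blue below). The block of red squares holds the 21 pairs among 7 genes, from 0.20 to 0.93, and the rows of Herpud1 and Dnajb9 stand outside it.

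Outside the 9, the genes whose within-group pattern was most like the mean of the 9 were other ER folding and entry genes and cytosolic chaperones. Pdia3, the disulfide isomerase that works with calreticulin and calnexin, had r = 0.98 over the 16 livers and rho = 0.95. Hsp90aa1, a cytosolic Hsp90, had r = 0.91 and rho = 0.88. Pdia6, a disulfide isomerase, had r = 0.90 and rho = 0.93. Hspa4l, a relative of the Hsp110 exchange factors, and Sec11a, a subunit of signal peptidase, both had r = 0.89 with rho = 0.89 and 0.90. Tram1, which assists entry of proteins at the translocon, had r = 0.88 and rho = 0.84. These 6 were picked as the highest of all genes with a mean of at least 50, so their r are a description. Of them, only Pdia6 passed the test between groups. Pdia3, the gene most like the 9, had a log2 fold change of -0.17 ± 0.11 (SE; limma adjusted p = 0.396).

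The wider pathway was described through gene lists by function. Among 9 sensors and their proteases, 1 was higher and 1 lower. Atf6, the sensor cleaved in the Golgi, rose from 1593 ± 39.3 to 1752 ± 83.3 normalized counts (SD, n = 8 each), a log2 fold change of 0.14 ± 0.04 (SE; limma adjusted p = 0.0336). Mbtps1, the site-1 protease that cleaves ATF6, fell from 1893 ± 68.5 to 1695 ± 88.7 (SD, n = 8 each), a log2 fold change of -0.16 ± 0.04 (SE; limma adjusted p = 0.0232). Ern1, which encodes IRE1, had -0.19 ± 0.09 (limma adjusted p = 0.207) and Eif2ak3, which encodes PERK, 0.25 ± 0.12 (limma adjusted p = 0.243). Scaling to equal totals ended the calls of Atf6 (adjusted p = 0.142) and Mbtps1 (0.0557). That of Atf6 also ended without any of 8 single libraries, with an adjusted p up to 0.0733 without Cyp7a1 28, and that of Mbtps1 without Cyp7a1 28 (0.0506).

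Among 26 other ER chaperones and folding enzymes, 5 were lower and 0 higher, 19 had fold changes below 0 and the median was -0.10. Txndc5, a thioredoxin-domain disulfide isomerase, fell from 4451.5 ± 325 to 3648 ± 274 normalized counts (SD, n = 8 each), a log2 fold change of -0.29 ± 0.05 (SE; limma adjusted p = 0.0053). P4hb, the main disulfide isomerase and a subunit of the microsomal triglyceride transfer complex, fell from 42577 ± 2892 to 35996 ± 1690 (SD, n = 8 each), a log2 fold change of -0.24 ± 0.06 (SE; limma adjusted p = 0.0205). In P4hb the highest Cyp7a1-labelled liver, 37319, lay below the lowest control, 39457. Pdia6 fell by 0.44 ± 0.11 (SE; limma adjusted p = 0.0248), a call that ended without Cyp7a1 19 (0.0505). Dnajc3, a J-domain co-chaperone also known as p58IPK, fell by 0.27 ± 0.07 (SE; limma adjusted p = 0.0324), and Uggt1, the folding sensor that returns glycoproteins to calnexin, by 0.25 ± 0.07 (SE; limma adjusted p = 0.0404). Uggt1 was named after its value was seen. Dnajc3 lost its call without any of 9 single libraries and Uggt1 without any of 10, with adjusted p up to 0.0582 and 0.0754, both without Control 25, and that of Uggt1 also ended with equal totals (0.0540) and array weights (0.0627). Over the alternatives, between 3 and 7 genes of this list passed as lower and 0 as higher.

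Among 20 other degradation genes, 1 was lower, 0 were higher, and 14 fold changes were below 0 with a median of -0.06. The lower one was Man1b1, a mannosidase that trims glycans of misfolded proteins, at -0.19 ± 0.05 (SE; limma adjusted p = 0.0193), which did not pass with equal totals (0.0951). Of 31 genes of translocation, signal cleavage and vesicle export, 29 were tested, 1 was lower, 0 were higher, and 25 fold changes were below 0 with a median of -0.08. The lower one was Ssr2, a subunit of the translocon-associated complex, at -0.16 ± 0.05 (SE; limma adjusted p = 0.0490), a call that ended without any of 14 single libraries, with an adjusted p up to 0.0904 without Cyp7a1 19, and with equal totals or edgeR. Of 14 genes of N-glycan transfer, 1 was lower, 0 were higher, and 8 fold changes were below 0. It was Rpn2, a subunit of the oligosaccharyltransferase, at -0.18 ± 0.04 (SE; limma adjusted p = 0.0229).

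Of 20 genes of the PERK and ATF4 arm, 18 were tested, 1 was higher and 1 lower, and 13 fold changes were above 0 with a median of 0.10. Asns, asparagine synthetase and a target of ATF4, rose from 19.6 ± 11.6 to 94.0 ± 46.9 normalized counts (SD, n = 8 each), a log2 fold change of 2.24 ± 0.38 (SE; limma adjusted p = 0.00222). Sesn2, a sestrin, fell by 0.43 ± 0.09 (SE; limma adjusted p = 0.0105). DESeq2 on recovered reads called 3 genes of this list higher. Of 8 transcripts known to be cut by IRE1, 7 were tested, 0 passed in the reported limma fit, and 1 had an unadjusted p under 0.05. With edgeR 0 passed. With DESeq2 1 was higher, and also with limma under quantile normalization, equal totals, array weights or a minimum mean of 50. Over the alternatives, 0 to 1 passed as higher and 0 to 1 as lower. Hgsnat, a lysosomal enzyme, had 0.10 ± 0.05 (SE; limma adjusted p = 0.326).

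Chaperones of other compartments were counted in the same way. Of 14 cytosolic heat shock genes, 13 were tested and 1 was higher, Hspa8, the constitutive cytosolic Hsp70, at 0.29 ± 0.08 (SE; limma adjusted p = 0.0445), a call that ended without any of 11 single libraries (up to 0.0884, without Cyp7a1 28) and with quantile normalization or equal totals. The median of that list was -0.06. Of 12 mitochondrial chaperones and proteases, 0 passed in the reported limma fit or with edgeR or DESeq2, and up to 1 was higher over the alternatives. In the reported fit 10 had fold changes above 0, with a median of 0.07. Hspd1, the mitochondrial Hsp60, had 0.16 ± 0.07 (SE; limma adjusted p = 0.167), and 3 genes of this list had an unadjusted p under 0.05.

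**Figure D5:**
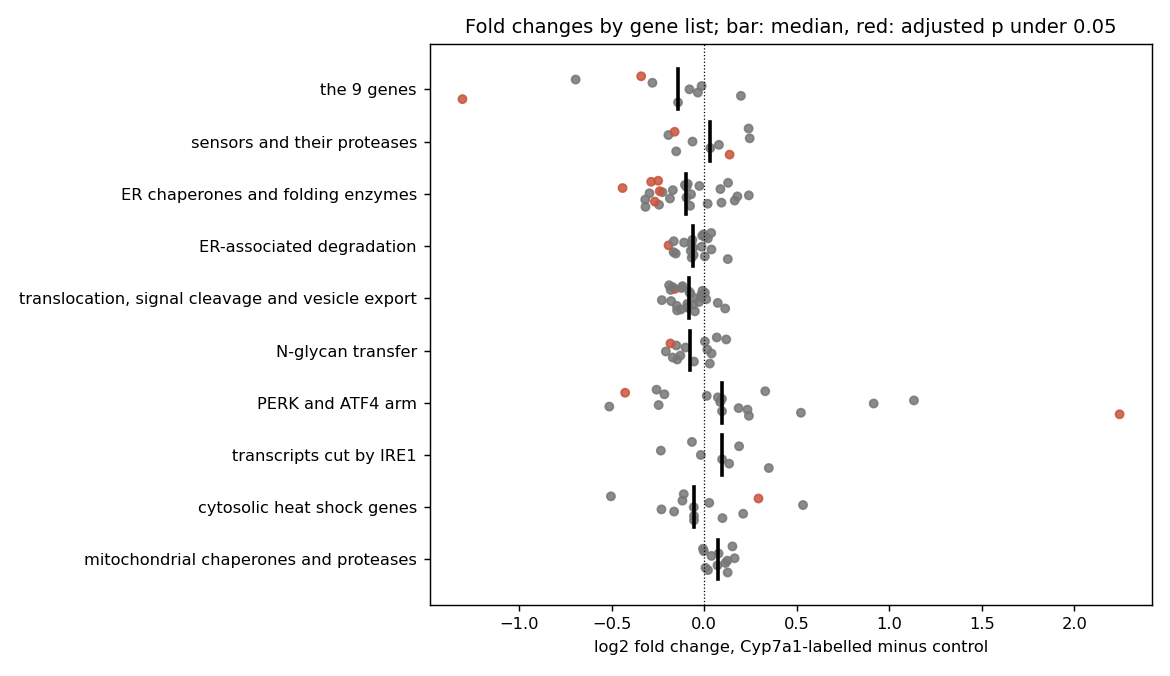
Log2 fold changes, Cyp7a1-labelled minus control, of every tested gene (points) of the 9 genes and of 9 further lists of stress and folding genes (rows), with the median as a vertical bar. Red points had an adjusted p under 0.05 over all genes. Medians of the upper 6 rows lay between -0.14 and 0.03, and the point far to the right is Asns, at 2.24.

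Plasma cells are known for high levels of Xbp1 and Derl3, and markers of other cell types are given beside these genes. Of 16 plasma and B cell markers, 6 were tested, 10 were not analysed here, and the summed level was 506.5 to 1182 normalized counts in controls and 491 to 1898 in Cyp7a1-labelled livers. The 10 included the plasma cell markers Mzb1, Tnfrsf17, Pou2af1 and Prdm1. All 6 tested markers had fold changes above 0, and 1 passed. That was Igha, the immunoglobulin A heavy chain, at 13.9 ± 8.05 and 58.1 ± 28.0 normalized counts (SD, n = 8 each) and a log2 fold change of 2.09 ± 0.34 (SE; limma adjusted p = 0.00158). The others had limma adjusted p from 0.298 for Igkc to 0.801 for Cd38. None of the 6 was at 0 in any library, the lowest value being 4.04 for Igha. The joining chain Jchain had 19.8 ± 6.14 and 24.3 ± 8.20 normalized counts.

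Hepatocyte markers summed to between 1669288 and 2442576 normalized counts in controls and between 1699235 and 2447907 in Cyp7a1-labelled livers. Of 10 hepatocyte markers 1 was higher, the tyrosine aminotransferase Tat, at 0.84 ± 0.24 (SE; limma adjusted p = 0.0466), a call that ended without any of 11 single libraries, up to 0.0906 without Cyp7a1 19. Of 12 Kupffer cell and macrophage, 9 tested stellate cell and 8 endothelial cell markers 0 passed with limma, edgeR or DESeq2, with 0, 0 and 2 of them at an unadjusted p under 0.05. Their sums overlapped between groups, at 7795 to 14804 and 6697 to 25338 normalized counts for Kupffer cells and macrophages. Of 6 tested cholangiocyte markers, 1 was lower, the keratin Krt23, at -2.15 ± 0.31 (SE; limma adjusted p = 0.000655). The other 5 had fold changes above 0, none of which passed, and the median of the list was 0.11. The part of these markers in the results for the 9 genes was not tested.

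Feeding state and time of day are known to move ER folding genes in liver, and neither is recorded in the labels. Of 13 tested clock genes 0 passed with limma, edgeR or DESeq2, and 1 had an unadjusted p under 0.05, Ciart, a circadian repressor, at 0.73 ± 0.30 (SE; limma adjusted p = 0.167). Of 14 fasting and feeding genes 2 were higher and 2 lower. Ppargc1a, a coactivator raised by fasting, rose by 0.69 ± 0.11, and Igfbp1, a binding protein that insulin represses, by 1.07 ± 0.23 (SE; limma adjusted p = 0.00175 and 0.0126). Srebf1, the lipogenic factor raised by insulin, fell by 0.98 ± 0.10 (SE; limma adjusted p = 3.2e-05). Insig2, an ER anchor of SREBP, fell by 0.57 ± 0.14 (SE; limma adjusted p = 0.0259), a call that ended without Control 12 or Cyp7a1 28, at up to 0.0512. The part of these genes in the results for the 9 was not tested.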

How the data were processed

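The values analysed are the authors' deposited normalized counts, a signal per gene for 12618 genes in 16 liver libraries, with 0 columns left unmatched to a sample. Per the labels' protocols, RNA came from flash-frozen tissue and a KAPA RNA HyperPrep kit turned 800 ng of it into each mRNA library. The submitters' processing notes name the build mm10, R 3.6.3, DESeq2, featureCounts, STAR 2.7.11a and Trim Galore 0.6.10, without their roles. Neither the annotation release nor the strand setting of the counting is stated, so reads of overlapping genes may be counted for either.

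The test was limma 3.58.1 (eBayes with trend, R 4.3.3) on log2(value + 1), which understates fold changes of low genes, with p adjusted by Benjamini-Hochberg over 12617 genes and called under 0.05. The minimum mean of 10 removed no gene. Ccne2, with text in 1 cell, was left out. Single genes were also tested by two-sided exact permutation over 12870 assignments of the libraries. Fold changes are Cyp7a1-labelled minus control. Groups follow the labels, which give no batch or pairing. Values within a library came in whole multiples of a step of 0.769 to 1.54. Dividing by it gave whole reads, within 0.05 reads, for 99.945% to 99.992% of values, between 13.8 and 27.4 M reads per library, on which edgeR 4.0.16 and DESeq2 1.42.0 were run as alternatives. The number of reads limits the precision of low genes such as Derl3.

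Gene lengths and 1-based mm10 coordinates came from GENCODE M21, in which 12594 of the IDs were found. Correlations used 100000 permutations within groups. Named genes are the 9, the targeted gene, of each list up to 4 called genes, by smallest p, or up to 2 where none was called (1 such gene is not reported here), and the 6 genes with the highest r to the mean of the 9. The 9 genes and the lists were chosen with earlier results of these data known, so their counts are no independent evidence. Scripts were tested on simulated data.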

Additional observations from a re-analysis of the deposited data

Results flagged for a closer look

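Dixon's 95% limit was applied on the log2(value + 1) scale. Over 96 groups of 8 values, 3 held a library whose gap to its nearest neighbour passed it, against about 1 in 20 by chance, or 4.8 here. None of the 18 groups of the 9 unfolded protein response genes was among them on that scale. On the linear scale, Derl3 had 282.4 normalized counts in Control 13, with the next control, Control 35, at 130.9. Xbp1 had 5193.6 in Control 20, with the next control, Control 25, at 4032.7. Yme1l1, a mitochondrial protease, had 1342 normalized counts in Cyp7a1 24 and 1085 to 1197 in the other Cyp7a1-labelled livers. Srebf1 had 17099.6 normalized counts in Control 20 and 9089 to 12036 in the other controls. Lyz2, a lysozyme of macrophages, had 2528 normalized counts in Control 13, the liver with the highest Derl3 and Sdf2l1, and 1149.6 to 1660.1 in the other controls.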

How the results depend on the processing

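The count of the 9 genes called lower was 2 in the reported fit, ran from 0 to 3 when 1 library was left out, and was 0 without Control 20 and Cyp7a1 24 together, a pair known from an earlier reading of these data. A minimum change of 1.5-fold left 1 of the 9 lower and, of all genes, 111 higher and 83 lower, against 387 and 385 without it. When 1 library was left out, 230 to 399 genes were higher and 245 to 414 lower, the lowest counts without Cyp7a1 28, and 256 were lower without Control 16. The count of the 9 called higher was 0 under every setting run.

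Leaving out the pair ended the calls of Xbp1 (limma adjusted p = 0.0608) and Derl3 (0.0559), and also those of Atf6 (0.0694), Mbtps1 (0.0525), Dnajc3 (0.0823), Ssr2 (0.0806) and Uggt1 (0.0696). The report gives, beside each gene, the calls that ended when 1 library was left out. The sign turned for Hspa5 with array weights (0.0541) and without the pair (0.0635), and over single libraries left out it ran from -0.0715 to 0.0924. For Herpud1 it turned with array weights (0.0057) and ran from -0.0913 to 0.017 over single libraries. The cause was not tested. Of 225 values of the 9 genes under these alternatives, 196 kept their direction and their side of the threshold, 16 kept only the direction and lost the call, 2 gained it and 11 changed sign. For 38 other named genes the counts were 857, 81, 11 and 0 of 949. Derl3 and Sdf2l1 had the lowest counts of the 9, so relative counting error was largest there. No paired analysis was possible because the groups share no replicate numbers.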
